A study of Mus musculus with 18 samples.

Results

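The interaction of the Akt inhibitor MK-2206 with tau was measured in R47H/+ primary mouse microglia, that is, whether the response of these cells to tau differed when Akt had been inhibited first. It was taken from 12 of the 18 RNA sequencing libraries of the series, all those labelled hTrem2 R47H/+, in 4 groups of 3. The first group received MK-2206 and tau, the second MK-2206 without tau, the third tau without MK-2206, and the fourth neither. MK-2206 was given at 1 uM for 6 h before tau, and the groups without it had 0.01% DMSO. Tau was given as 0N4R fibrils at 1 ug per ml. All 4 groups carry the R47H form of TREM2 on 1 allele, so no wild-type cells enter the comparison. The cells were grown in mixed culture from newborn pups, and nothing in the labels says that replicates were separate cultures or animals. The p-values therefore measure the spread between these libraries, which may be technical.

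Microglia are the resident macrophages of the brain, and TREM2 is their lipid-sensing surface receptor. TREM2 signals through an adaptor to PI3K, which recruits and activates the kinase Akt. Active Akt keeps FOXO transcription factors out of the nucleus and feeds the mTOR branch that controls growth and sterol synthesis. MK-2206 is an allosteric inhibitor of Akt. Aggregated tau taken up by microglia drives NF-kB signalling and a type I interferon response. The comparison asks whether Akt inhibition changes that response in cells with the R47H receptor.

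Library totals of the 12 ran from 16288531 to 20467481 counts, and the count filter left 12912 genes. Levels are given in CPM, counts scaled to library size. In the tau group, replicate 2 stood apart, with low values for long genes and high values for short ones. Its slope was -0.604 log2 CPM for each 10-fold step in gene length; the other 11 had slopes from -0.0462 to 0.164. The mitochondrial genes' share of its counts was 0.753%, below the 0.847% to 1.51% seen elsewhere. The interaction was therefore also computed without this library, for single genes, gene lists and gene families. So were the numbers of genes called for each tau and MK-2206 effect. Correlations, overlaps of the tau or of the MK-2206 effects, list counts for those effects and promoter shares rest on all 12 libraries. Of the microglial markers, Csf1r lay between 1820.0 and 2690.0 CPM, but Tmem119 did not pass 2.52 CPM in any library. The 12 listed astrocyte markers summed to 95.0 to 108 CPM with MK-2206 and tau, 56.0 to 71.3 with MK-2206, 79.3 to 104 with tau and 67.8 to 71.9 with neither. Most of that sum was Aldh1l1, and Gfap did not pass 0.714 CPM. The 12 fibroblast and vascular markers summed to 99.9 to 107 CPM with MK-2206 and tau, 31.9 to 35.1 with MK-2206, 59.7 to 98.1 with tau and 27.2 to 34.8 with neither. Most of that sum was Kdr, while Cldn5 was at 0 and Col1a1 did not pass 1.28 CPM. The 12 oligodendrocyte lineage markers summed to 285 to 288, 225 to 236, 271 to 306 and 242.5 to 245 CPM in the same 4 groups, most of it Cnp and Mbp, and Olig2 did not pass 2.44 CPM. Summed neuron markers stayed at or below 5.89 CPM and lymphocyte markers at or below 4.43 CPM in all 12 libraries. The 13 markers of border macrophages, monocytes and granulocytes summed to 1231 to 1358, 1059 to 1076, 1276 to 1793 and 1125 to 1190.0 CPM in the same 4 groups, with S100a9, Ly6g and Mpo at 0. Their part in the results was not tested, and in bulk RNA fewer cells of a type and less RNA per cell cannot be told apart.

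Tau moved a large share of the transcriptome on both backgrounds. With MK-2206, 4724 genes (36.6% of those tested) changed with tau, 2494 higher (19.3%) and 2230 lower (17.3%), and without it 5447 (42.2%), 2923 higher (22.6%) and 2524 lower (19.5%), by edgeR's quasi-likelihood test at a Benjamini-Hochberg adjusted p below 0.05. The tau changes on the 2 backgrounds share no library. They had a Pearson r of 0.833 across genes, which are not independent replicates. In both arms 3486 genes were called in the same direction, 73.8% of those called with MK-2206 and 64% of those called without it, and 33 genes were called in opposite directions. The interaction is the tau log2 change with MK-2206 minus the tau log2 change without it. It was called for 187 genes (1.45%), for 97 genes higher (0.751%) and for 90 lower (0.697%), and 2006 genes had an unadjusted p below 0.05. Without tau replicate 2 it was called for 851 of 13199 genes (6.45%), 497 higher (3.77%) and 354 lower (2.68%), and with a gene length offset as well 561 higher and 331 lower, a setting chosen after seeing the data. Of the 187 genes, 186 were called again there in the same direction.

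**Figure D1:**
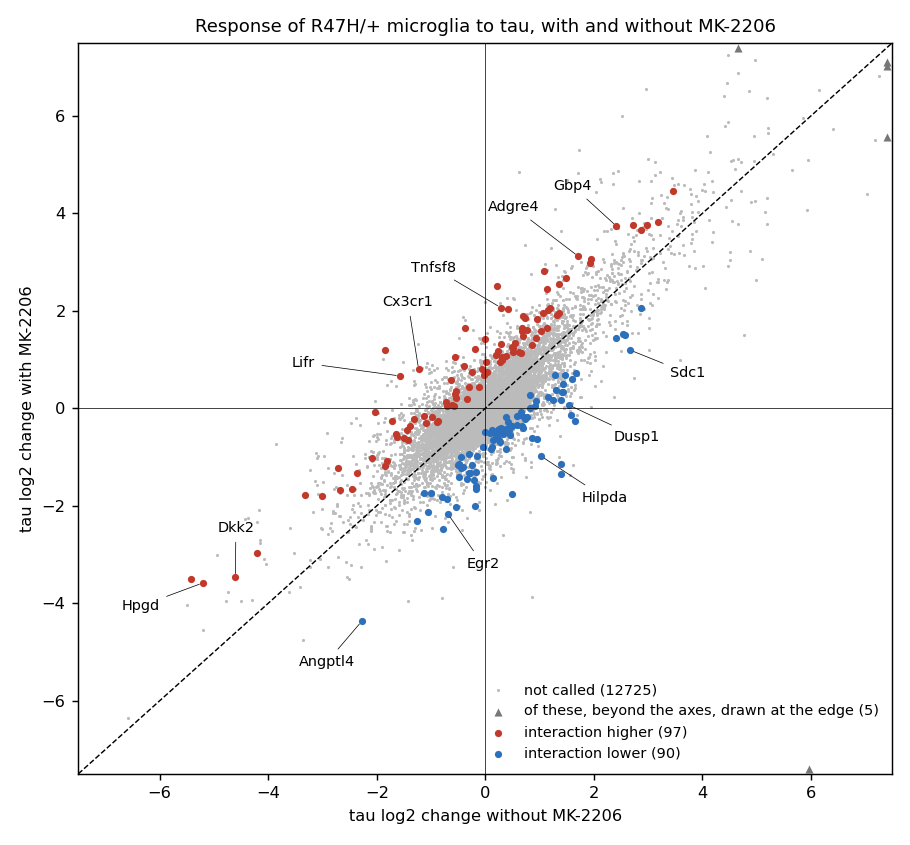
Each point is 1 gene, with its tau log2 change without MK-2206 on the x axis and with MK-2206 on the y axis, in R47H/+ microglia; genes called for the interaction are coloured and the dashed line marks equal change. Most genes lie near the line, the 97 genes with a higher interaction lie above it and the 90 with a lower one below it, and the 5 triangles are uncalled genes beyond the axes.

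The 187 genes took several forms. For 27 of them tau acted in opposite directions on the 2 backgrounds, both called. In the others the larger tau change was a rise that was larger with MK-2206 (55 genes), a fall that was larger with MK-2206 (40), a rise that was smaller with MK-2206 (31) or a fall that was smaller with it (34). The same genes can be read by the effect of MK-2206 in each tau state. MK-2206 with tau changed 1275 genes (9.87%), 600 higher (4.65%) and 675 lower (5.23%), and MK-2206 without tau changed 712 (5.51%), 339 higher (2.63%) and 373 lower (2.89%). Across genes these 2 MK-2206 effects had an r of 0.293. Among the 187, the MK-2206 effect was called with tau and not without it for 89, without tau and not with it for 71, in both states for 17 and in neither for 10. In 14 of the 17 it had opposite signs. A call in 1 state alone is here backed by the interaction test itself.

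**Figure D2:**
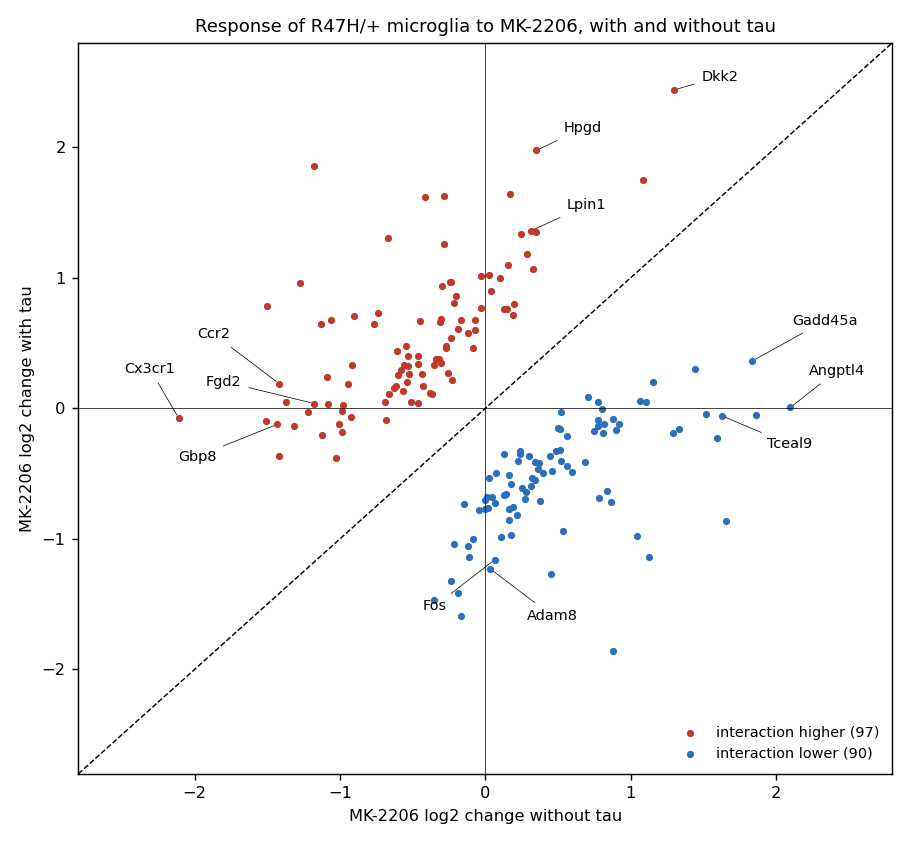
Each point is 1 of the 187 interaction genes, with its MK-2206 log2 change without tau on the x axis and with tau on the y axis, in R47H/+ microglia; the dashed line marks equal change. Genes near the x axis, such as Cx3cr1, Gbp8 and Angptl4, differed with MK-2206 without tau, and genes near the y axis, such as Lpin1, Fos and Adam8, differed with MK-2206 in the presence of tau.

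Genes of the resting microglial state formed the first group with a higher interaction. Of 27 tested members of the homeostatic list, 6 were called higher and 0 lower, with a list median of 0.41 log2, against 0.01 over all genes tested. For each interaction list count below, the shares over all genes were 0.751% higher and 0.697% lower. Without tau replicate 2 these shares were 3.77% and 2.68%. For list counts of tau effects they were 19.3% higher and 17.3% lower with MK-2206, and 22.6% and 19.5% without it. For list counts of MK-2206 effects they were 4.65% and 5.23% with tau, and 2.63% and 2.89% without it. Cx3cr1, the receptor for the neuronal chemokine fractalkine (ENSMUSG00000052336, chromosome 9, 119901616 to 120069879), had 34.8, 31.2 and 37.3 CPM with MK-2206 and tau, against 23.9, 17.8 and 17.7 CPM with MK-2206. It had 40.1, 30.3 and 38.6 CPM with tau, against 83.0, 92.0 and 80.9 CPM with neither. Cells with neither agent were thus the highest and cells with MK-2206 the lowest, and the 2 groups with tau overlapped. Tau changed Cx3cr1 by 0.80 ± 0.14 log2 (SE) with MK-2206 and by -1.23 ± 0.13 without it, and the interaction was 2.03 ± 0.19 (edgeR quasi-likelihood adjusted p = 0.000555), the smallest p of all genes. The annotated locus overlaps Wdr48, which the counting could not always separate.

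The ADP receptor P2ry12 rose with tau on both backgrounds. It had 32.5, 39.1 and 33.9 CPM with MK-2206 and tau, against 13.2, 10.3 and 10.3 with MK-2206, and 43.4, 31.9 and 31.6 with tau, against 21.99, 24.2 and 20.5 with neither. MK-2206 without tau left it lower, by -0.98 ± 0.15 log2, whereas the groups with tau overlapped, and its interaction was 0.96 ± 0.20 (adjusted p = 0.0316, edgeR). P2ry13, the neighbouring ADP receptor, had an interaction of 0.60. With P2ry14, a receptor for UDP-glucose, 3 of the 10 purinergic P2 receptor genes tested were called, all higher; this family was chosen after its values were seen.

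Gpr34, a receptor for lysophosphatidylserine, was among the genes that tau lowered on both backgrounds. It had 5.89, 7.02 and 7.81 CPM with MK-2206 and tau, against 25.2, 26.4 and 19.2 with MK-2206, and 3.62, 3.27 and 1.76 with tau, against 24.2, 30.9 and 31.2 with neither. The fall with tau was -1.78 log2 with MK-2206 and -3.32 without it, an interaction of 1.55 ± 0.29 (adjusted p = 0.0178, edgeR). Hpgd, which degrades prostaglandins, also fell with tau on both backgrounds, with tau changes of -3.59 and -5.21 and an interaction of 1.62 ± 0.29. Csf1r, the receptor that keeps microglia alive, differed less. It had 2679, 2661 and 2688 CPM with MK-2206 and tau, against 1878, 1861 and 2216 with MK-2206, and 1975, 1817 and 2031 with tau, against 2140.0, 2076 and 2114 with neither, an interaction of 0.55 ± 0.12. Without tau replicate 2, 11 members of the list were called higher and 1 lower.

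Receptors and ligands of immune cells carried some of the largest positive values. Lifr, a subunit of the leukaemia inhibitory factor receptor, was low throughout, at 2.97, 2.66 and 4.02 CPM with MK-2206 and tau, against 1.94, 2.52 and 1.64 with MK-2206, and at 1.93, 1.09 and 1.93 with tau, against 5.41, 4.82 and 4.55 with neither. Its interaction was 2.24 ± 0.35 (adjusted p = 0.00667, edgeR), and the groups overlapped in none of the 4 pairs. Ccr2, the receptor for the chemokine Ccl2 that marks monocytes, had 16.04, 20.9 and 20.6 CPM with MK-2206 and tau, against 7.07, 8.83 and 11.7 with MK-2206, and 19.9, 17.8 and 12.8 with tau, against 25.4, 27.2 and 21.5 with neither. Tau thus raised Ccr2 with MK-2206 (1.05 ± 0.19 log2) and lowered it without (-0.55 ± 0.19), an interaction of 1.61 ± 0.27 (adjusted p = 0.00881, edgeR). Ccr2 was the 1 member of 7 tested border macrophage and monocyte markers that was called. Without tau replicate 2 this list had 4 called higher and 0 lower. The monocyte marker Ly6c2 rose with tau in both arms. Its interaction was not called with 12 libraries and passed without tau replicate 2 (edgeR adjusted p = 0.0369).

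Tnfsf8, the ligand of CD30, stood at 17.6, 15.99 and 19.2 CPM with MK-2206 and tau, against 4.50, 4.55 and 3.60 with MK-2206, and at 12.2, 7.92 and 13.7 with tau, against 10.5, 9.99 and 7.26 with neither. Tau raised it with MK-2206 (2.06 ± 0.20 log2) and the 2 groups without MK-2206 overlapped. Its interaction was 1.78 ± 0.28 (adjusted p = 0.00667, edgeR). Adgre4, an adhesion receptor of the F4/80 family, had an interaction of 1.41 ± 0.27, and Gpr141, an orphan receptor, of 1.20 ± 0.15. Itgb7, an integrin subunit chosen after its values were seen, had 2.29 ± 0.38. Fgd2, an exchange factor for the small GTPase Cdc42, had 108, 102 and 108 CPM with MK-2206 and tau, against 26.6, 27.1 and 31.3 with MK-2206, and 97.4, 106 and 107 with tau, against 63.6, 64.5 and 64.3 with neither. MK-2206 lowered Fgd2 without tau (-1.18 ± 0.09 log2), the groups with tau overlapped, and the interaction was 1.21 ± 0.12 (adjusted p = 0.000654, edgeR).

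**Figure D3:**
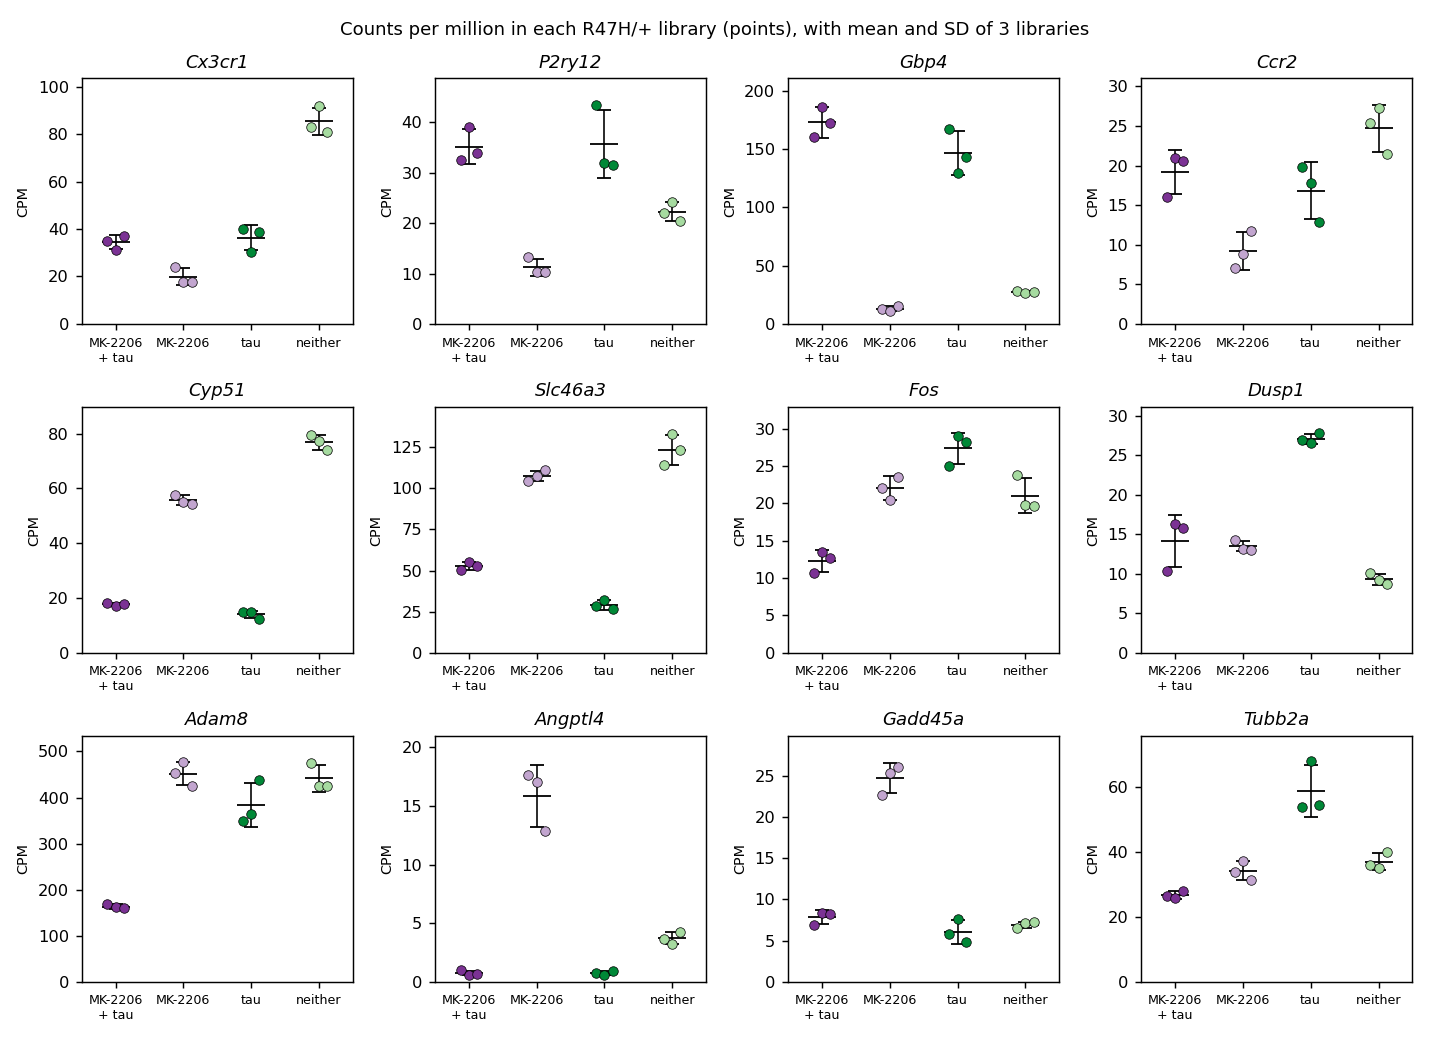
Each panel gives 1 gene in CPM on an axis from 0, with a point for each library of R47H/+ microglia and a bar for the mean and SD of 3 libraries, in the order MK-2206 and tau, MK-2206, tau, neither. Cx3cr1, P2ry12, Gbp4 and Ccr2 are lower with MK-2206 than with neither but overlap between the groups with tau, Fos, Dusp1, Adam8 and Tubb2a are lower with MK-2206 and tau than with tau, and Angptl4 and Gadd45a are high with MK-2206 alone.

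Interferon-inducible GTPases made up the second group. Of 50 tested interferon-stimulated genes, 49 rose with tau with MK-2206 and 48 without it, so the list responded to tau in both arms, and 5 were called higher for the interaction and 0 lower, with a median of 0.37 log2. The 5 were Gbp2, Gbp4, Gbp5, Sp100, a nuclear body protein, and Dtx3l, a ubiquitin ligase that shares its locus with Parp9. Gbp4 stayed called under all 20 alternative settings, Gbp2 under 15, Gbp5 under 9, Dtx3l under 8 and Sp100 under 6. Gbp5, Dtx3l and Sp100 each lost the call with the replicate block and without any 1 library that had both agents or neither, without MK-2206 replicate 1 or 2 and without tau replicate 3. Gbp2 lost it without replicate 2 of the cells with both agents, replicate 1 or 2 with MK-2206, or replicate 1 with neither. Gbp4 (ENSMUSG00000079363, chromosome 5, 105115767 to 105139586) had 159.9, 186 and 172 CPM with MK-2206 and tau, against 12.8, 10.9 and 15.1 with MK-2206, and 167, 129 and 143 with tau, against 28.4, 26.7 and 27.4 with neither. Tau raised it by 3.74 ± 0.13 log2 with MK-2206 and 2.41 ± 0.13 without it, and the groups with tau overlapped. The interaction of 1.33 ± 0.17 (adjusted p = 0.00238, edgeR) thus stood beside an MK-2206 difference of -1.09 without tau and of 0.24 with tau, where only the difference without tau was called.

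Gbp8 repeated this pattern at 95.5, 102 and 93.9 CPM with MK-2206 and tau, against 17.6, 18.1 and 17.8 with MK-2206, and 111, 116 and 91.6 with tau, against 52.0, 46.3 and 46.1 with neither. Its interaction was 1.31 ± 0.14 (adjusted p = 0.000718, edgeR). Guanylate-binding proteins coat intracellular pathogens and damaged vacuoles. Of the 11 tested, 4 were called, all 11 had a value above 0 (0.49 to 1.56 log2), and 10 were called higher without tau replicate 2. The family was chosen after its values were seen, and Gbp4, Gbp8 and Gbp9 overlap in the annotation and are close copies, so their counts are uncertain. Iigp1, an immunity-related GTPase chosen after its values were seen, had 432, 515 and 499 CPM with MK-2206 and tau, against 59.9, 54.6 and 58.3 with MK-2206. It had 528, 419 and 468 CPM with tau, against 141, 114 and 111 with neither. The interaction was 1.11 ± 0.16 (adjusted p = 0.00356, edgeR). Of 7 immunity-related GTPases tested, 2 were called higher and 0 lower, and their values ran from -0.62 to 1.11 log2.

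The MK-2206 effect on the whole interferon list differed in count between tau states. Without tau 24 of the 50 genes fell with MK-2206 and 0 rose, and with tau 3 fell and 1 rose. Among all genes tested, 2.89% fell and 2.63% rose with MK-2206 without tau, and 5.23% fell and 4.65% rose with tau. Ifit1, a sensor of foreign RNA caps, had 841, 919.9 and 897 CPM with MK-2206 and tau, against 207, 165 and 174 with MK-2206, and 995, 934 and 863 with tau, against 287, 269.6 and 243 with neither. Its interaction of 0.48 ± 0.14 missed the threshold (adjusted p = 0.120, edgeR) and passed it without tau replicate 2 (0.48, adjusted p = 0.0172). Without that library 32 of the 50 were called higher and 0 lower, so how many of these genes pass depends on 1 library. Calls over all genes tested also rose then, from 0.751% to 3.77% higher and from 0.697% to 2.68% lower. The list median without it was 0.41.

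The promoters of Gbp2 and Gbp5 are shown because both genes had a higher interaction and carry the core letters of an interferon-stimulated response element, GAAANNGAA on either strand, in the 250 bases before the start site of the RefSeq table (GRCm38.p6). The Gbp2 window is chr3:142620413-142620662 and the Gbp5 window chr3:142496684-142496933, both on the plus strand, and capitals mark the match. The RefSeq start used lies 61 bases inside the Gbp2 gene of the deposited coordinates, and 2956 bases inside the Gbp5 gene. The Gbp5 window thus lies within the gene as counted.
Gbp2: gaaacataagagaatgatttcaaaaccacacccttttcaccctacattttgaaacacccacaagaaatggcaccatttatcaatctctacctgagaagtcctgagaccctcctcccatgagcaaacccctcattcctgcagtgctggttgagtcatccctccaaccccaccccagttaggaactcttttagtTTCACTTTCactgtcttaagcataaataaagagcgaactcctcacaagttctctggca
Gbp5: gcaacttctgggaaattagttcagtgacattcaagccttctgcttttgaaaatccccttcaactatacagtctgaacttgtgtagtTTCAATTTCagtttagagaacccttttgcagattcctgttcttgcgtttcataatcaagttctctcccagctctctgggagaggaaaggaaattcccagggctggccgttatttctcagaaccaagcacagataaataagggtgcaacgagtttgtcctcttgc
The letters occurred in 9 of the 77 matched promoters of genes with a higher interaction (11.7%), in 7 of 68 with a lower one (10.3%) and in 638 of all 9605 matched (6.64%). These shares are descriptions of letters in a window, and 12912 genes had been looked up.

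Genes of cholesterol synthesis and uptake were the third group. Tau lowered 19 of the 24 tested with MK-2206 and 22 without it, and raised 0 in either arm. For the interaction 3 were called higher and 0 lower, with the highest list median of those drawn, 0.44 log2. Cyp51, which demethylates lanosterol, had 18.2, 17.3 and 17.7 CPM with MK-2206 and tau, against 57.7, 55.1 and 54.3 with MK-2206, and 14.8, 14.7 and 12.4 with tau, against 79.3, 77.3 and 73.8 with neither. Cells with MK-2206 and tau lay above those with tau, cells with MK-2206 lay below those with neither, and no groups overlapped. The tau change was -1.65 ± 0.09 log2 with MK-2206 and -2.46 ± 0.09 without it, an interaction of 0.81 ± 0.13 (adjusted p = 0.00761, edgeR); the locus overlaps Akap9.

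The cholesterol carrier Stard4, also called, had an interaction of 0.73 ± 0.17. MK-2206 raised 7 of the 24 with tau and 0 without, and lowered 0 with tau and 2 without. Over all genes it raised 4.65% with tau and 2.63% without, and lowered 5.23% and 2.89%. Without tau replicate 2, 8 were called higher and 0 lower. Acss2, which makes acetyl-CoA from acetate, was the 1 called member of 17 fatty acid synthesis genes, with 0.94 ± 0.18.

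Several single metabolic genes that tau lowered were higher with MK-2206 and tau than with tau. Slc46a3, a lysosomal transporter, had 50.5, 55.1 and 52.8 CPM with MK-2206 and tau, against 104, 107 and 111 with MK-2206, and 28.5, 32.2 and 26.6 with tau, against 114, 133 and 123 with neither. Its interaction was 1.06 ± 0.13 (adjusted p = 0.00180, edgeR), from an MK-2206 change of 0.86 ± 0.10 with tau and an uncalled -0.20 ± 0.09 without. Lpin1, a phosphatidate phosphatase, had 22.96, 19.9 and 22.3 CPM with MK-2206 and tau, against 53.0, 54.3 and 55.9 with MK-2206, and 8.03, 8.09 and 9.31 with tau, against 40.5, 46.6 and 44.5 with neither. The interaction of Lpin1 was 1.05 ± 0.14 (adjusted p = 0.00238, edgeR).

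Dkk2, a secreted regulator of Wnt signalling, showed the deepest of these falls. It had 10.4, 11.95 and 12.2 CPM with MK-2206 and tau, against 127, 130.1 and 124 with MK-2206, and 1.87, 2.12 and 2.33 with tau, against 51.9, 54.7 and 48.2 with neither. MK-2206 raised Dkk2 in both tau states, by 2.44 ± 0.13 log2 with tau and 1.30 ± 0.09 without, an interaction of 1.14 ± 0.16 (adjusted p = 0.00284, edgeR). Among other genes of this form were Rnf144b, a ubiquitin ligase (1.00 ± 0.13), Cyp27a1, a sterol hydroxylase chosen after its values were seen (0.86 ± 0.14), and Deptor, an inhibitor of mTOR (1.05 ± 0.22). Deptor was the 1 called gene of 30 PI3K and Akt pathway components (4 higher and 2 lower without tau replicate 2). Tln2 and Adcy4 had interactions of 1.47 and 1.48 log2. St8sia6 and Alox15, with 1.62 and 1.42, were not of this form, since tau raised them with MK-2206, by 2.04 and 1.22 log2.

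On the lower side, immediate early genes led. Of 24 tested early response and AP-1 factors, 0 were called higher and 6 lower, with a median of -0.56 log2, the lowest of the lists drawn, and 11 were called lower without tau replicate 2. The 6 were Fos, Jund, Atf3, Egr2, Dusp1 and Dusp5. Fos, a subunit of AP-1 (ENSMUSG00000021250, chromosome 12, 85473890 to 85477273), had 10.7, 13.5 and 12.7 CPM with MK-2206 and tau, against 22.1, 20.4 and 23.6 with MK-2206, and 25.01, 29.0 and 28.2 with tau, against 23.7, 19.8 and 19.6 with neither. Cells with MK-2206 and tau were the lowest of the 4 groups, and cells with MK-2206 overlapped those with neither. Tau changed Fos by -0.84 ± 0.12 log2 with MK-2206 and by 0.38 ± 0.12 without it, an interaction of -1.22 ± 0.17 (adjusted p = 0.00284, edgeR).

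Dusp1, a phosphatase that switches off MAP kinases (ENSMUSG00000024190, chromosome 17, 26505590 to 26508519), had 10.4, 16.3 and 15.7 CPM with MK-2206 and tau, against 14.3, 13.2 and 13.1 with MK-2206, and 26.9, 26.6 and 27.8 with tau, against 10.1, 9.18 and 8.70 with neither. Tau raised it without MK-2206 (1.54 ± 0.15 log2), and with MK-2206 the groups overlapped (0.06 ± 0.14). The interaction was -1.48 ± 0.20 (adjusted p = 0.00284, edgeR). Dusp5, which acts on ERK and was chosen after its values were seen, had -1.23 ± 0.27. These were the 2 called of 20 dual-specificity phosphatase genes, a family also chosen after its values were seen. That family had 1 higher and 4 lower without tau replicate 2. Ets2, a transcription factor downstream of Ras and MAP kinase, had 42.2, 41.6 and 36.8 CPM with MK-2206 and tau, against 31.4, 28.2 and 35.96 with MK-2206, and 82.6, 73.4 and 83.4 with tau, against 30.4, 28.6 and 29.6 with neither. The tau rise of Ets2 was 0.34 log2 with MK-2206 and 1.43 without it, an interaction of -1.10 ± 0.15 (adjusted p = 0.00238, edgeR).

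Egr2 took another form, since MK-2206 raised it without tau. It had 6.15, 7.71 and 4.90 CPM with MK-2206 and tau, against 32.3, 31.9 and 20.4 with MK-2206, and 6.83, 6.596 and 7.43 with tau, against 11.3, 11.3 and 10.98 with neither. Its interaction was -1.49 ± 0.26 (adjusted p = 0.0125, edgeR). Jund and Atf3 had interactions of -0.94 ± 0.22 and -0.57 ± 0.13. Jun missed the threshold at -0.51 ± 0.12 (adjusted p = 0.0583, edgeR) and passed it without tau replicate 2 (adjusted p = 0.00218).

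The promoters of Dusp1 and Tubb2a, both with a lower interaction, carry the full cyclic AMP response element TGACGTCA, a palindrome bound by CREB and related factors, and are shown for that reason. The Dusp1 window is chr17:26508473-26508722 and the Tubb2a window chr13:34078009-34078258, both on the minus strand of GRCm38.p6 and given 5′ to 3′ along the gene, with the match in capitals. The RefSeq start used lies 47 bases inside the Dusp1 gene of the deposited coordinates.
Dusp1: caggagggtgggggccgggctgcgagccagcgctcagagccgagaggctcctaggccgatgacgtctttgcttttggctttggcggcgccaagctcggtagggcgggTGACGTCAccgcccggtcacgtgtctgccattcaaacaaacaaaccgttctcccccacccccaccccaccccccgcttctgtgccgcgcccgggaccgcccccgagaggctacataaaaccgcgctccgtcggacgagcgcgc
Tubb2a: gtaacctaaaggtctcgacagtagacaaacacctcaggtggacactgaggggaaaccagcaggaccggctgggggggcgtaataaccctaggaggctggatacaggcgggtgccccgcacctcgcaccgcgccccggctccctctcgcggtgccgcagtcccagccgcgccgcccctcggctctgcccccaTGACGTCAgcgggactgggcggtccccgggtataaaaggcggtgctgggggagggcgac
The element was found in 4 of 68 matched promoters of genes with a lower interaction (5.88%), in 1 of 77 with a higher one (1.3%) and in 270 of 9605 in all (2.81%). Another motif, the FOXO site TGTTTAC, occurred in 2 of 68 (2.94%), 2 of 77 (2.6%) and 208 of 9605 (2.17%) on either strand.

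Tubulins, the building blocks of microtubules, were also among the genes with a lower interaction. Of 12 alpha and beta tubulin genes tested, a family chosen after its values were seen, 0 were called higher and 6 lower, with a median of -0.74 log2 and a range from -1.09 to 0.55. Tubb2a (ENSMUSG00000058672, chromosome 13, 34074274 to 34078007) had 26.3, 25.7 and 27.9 CPM with MK-2206 and tau, against 33.9, 37.2 and 31.4 with MK-2206, and 53.7, 67.9 and 54.5 with tau, against 35.8, 35.1 and 39.9 with neither. Its interaction was -1.03 ± 0.16 (adjusted p = 0.00544, edgeR), with a tau change of -0.36 with MK-2206 and of 0.67 without. Tubb4b had 54.6, 55.2 and 52.9 CPM with MK-2206 and tau, against 32.0, 32.9 and 33.0 with MK-2206, and 96.3, 133 and 108 with tau, against 38.1, 33.2 and 34.98 with neither. Tau raised Tubb4b on both backgrounds, by less with MK-2206, and the interaction was -0.93 ± 0.16 (adjusted p = 0.00881, edgeR). Tuba1c, Tubb6, Tubb2b and Tuba4a had -1.09, -0.92, -1.04 and -0.85 log2. Tau replicate 2, the library with high short genes, was the highest tau library for each of these 6 short genes, and without it 8 of the 12 were called lower with a median of -0.59. Tubulins are close copies of each other, so the split of reads between them is uncertain.

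Genes of the oxidative stress response controlled by NRF2 also had lower values. Of 22 tested, 0 were called higher and 4 lower, with a median of -0.36 log2 (7 lower without tau replicate 2). Srxn1, which repairs oxidised peroxiredoxins, had 32.1, 39.3 and 37.1 CPM with MK-2206 and tau, against 38.4, 43.5 and 40.8 with MK-2206, and 58.1, 62.9 and 62.0 with tau, against 34.8, 34.8 and 37.7 with neither. The tau libraries stood above the other 9, and the interaction was -0.95 ± 0.14 (adjusted p = 0.00356, edgeR). Gsr, glutathione reductase, and Slc7a11, the cystine importer, instead were highest with MK-2206 without tau. Gsr had 54.5, 65.5 and 71.0 CPM with MK-2206 and tau, against 91.3, 82.0 and 104 with MK-2206, and 66.9, 67.6 and 68.3 with tau, against 54.8, 56.2 and 51.1 with neither. The interactions were -0.86 ± 0.16 for Gsr, -0.94 ± 0.19 for Slc7a11 and -0.76 ± 0.14 for thioredoxin reductase Txnrd1. Slc7a11 is also on the ATF4 and amino acid list, where it, the serine synthesis gene Psat1 (-0.82 ± 0.16) and Atf3 were the 3 called lower of 25, with 0 called higher. Without tau replicate 2 that list had 6 higher and 3 lower, so its direction rests on that library.

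Angptl4, Hilpda and Plin2, genes of lipid storage, were each called lower for the interaction. Angptl4, a secreted inhibitor of lipoprotein lipase, had 0.974, 0.569 and 0.700 CPM with MK-2206 and tau, against 17.7, 17.1 and 12.8 with MK-2206, and 0.785, 0.574 and 0.908 with tau, against 3.67, 3.19 and 4.21 with neither. MK-2206 raised it without tau (2.10 ± 0.18 log2), and both groups with tau lay below 1 CPM. The interaction was -2.09 ± 0.38 (adjusted p = 0.0141, edgeR). Hilpda, a lipid droplet protein that inhibits triglyceride breakdown, had 6.36, 4.55 and 5.48 CPM with MK-2206 and tau, against 11.51, 11.4 and 9.76 with MK-2206, and 8.82, 13.7 and 9.87 with tau, against 5.05, 5.34 and 5.43 with neither. Either agent alone raised Hilpda, by 1.04 ± 0.17 log2 for MK-2206 and 1.03 ± 0.17 for tau, and in cells with both the levels overlapped those with neither, an interaction of -2.02 ± 0.25 (adjusted p = 0.00153, edgeR). Plin2, the droplet coat protein and chosen after its values were seen, averaged 508 ± 9.15 CPM with MK-2206 and tau and 888 ± 99.2 with MK-2206, then 673 ± 82.9 with tau and 619 ± 4.58 with neither (SD, n = 3 each), an interaction of -0.93 ± 0.14.

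Gadd45a, a growth arrest gene and a known FOXO target, was also highest with MK-2206 alone. It had 6.92, 8.41 and 8.28 CPM with MK-2206 and tau, against 22.7, 25.4 and 26.1 with MK-2206, and 5.80, 7.69 and 4.82 with tau, against 6.48, 7.09 and 7.21 with neither. The 3 groups other than MK-2206 alone lay within 4.82 to 8.41 CPM, and the interaction was -1.47 ± 0.22 (adjusted p = 0.00467, edgeR). Of 34 tested FOXO and insulin pathway targets, 3 were called lower and 0 higher, the other 2 being the interleukin 7 receptor Il7r (-1.04 ± 0.17) and the autophagy gene Gabarapl1 (-0.80 ± 0.15). The list median was 0.23, opposite in sign to these 3 genes, and without tau replicate 2 it had 3 higher and 3 lower. MK-2206 raised 17 of the 34 with tau and 12 without, and lowered 1 and 2. The shares over all genes were 4.65% and 2.63% raised, and 5.23% and 2.89% lowered. Irs2, the insulin receptor substrate that FOXO factors induce, rose with MK-2206 in both states (1.05 ± 0.21 log2 with tau, 0.78 ± 0.17 without) and its interaction of 0.27 ± 0.27 was not called (adjusted p = 0.653, edgeR).

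Arg1, an arginase of alternatively activated macrophages, was likewise highest with MK-2206 alone, at 11.4, 9.23 and 11.54 CPM with MK-2206 and tau, against 54.2, 54.7 and 51.3 with MK-2206, and at 8.22, 12.3 and 10.6 with tau, against 27.6, 23.8 and 23.2 with neither. Its interaction was -1.05 ± 0.19 (adjusted p = 0.0152, edgeR). With Egr2 and the transglutaminase Tgm2 (-0.97 ± 0.20) it made up the 3 called lower of 14 alternative activation genes, with 0 higher. Without tau replicate 2 that list had 1 higher and 5 lower. Tgm2 differed from Arg1 in that tau raised it on both backgrounds, by 1.44 log2 with MK-2206 and 2.41 without. Tceal9, a gene of little known function, had 19.4, 19.1 and 19.6 CPM with MK-2206 and tau, against 105, 117 and 101 with MK-2206, and 19.8, 25.7 and 15.04 with tau, against 33.4, 36.1 and 34.98 with neither, an interaction of -1.69 ± 0.20 (adjusted p = 0.00153, edgeR). It too stood out with MK-2206 alone.

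Among surface proteins, Adam8, a metalloprotease of activated myeloid cells, had 168, 163 and 159 CPM with MK-2206 and tau, against 452, 477 and 426 with MK-2206, and 349, 364 and 438 with tau, against 475, 424 and 426 with neither. The 3 libraries with both agents lay below all other 9, and no difference was called for MK-2206 without tau (0.03 ± 0.10 log2) or tau without MK-2206 (-0.20 ± 0.10). Its interaction was -1.27 ± 0.14 (adjusted p = 0.000718, edgeR). C5ar1, the receptor for complement C5a, was also lowest with both agents, with an interaction of -0.69 ± 0.11. It had 157, 158 and 158 CPM with MK-2206 and tau, against 209, 214 and 201 with MK-2206. With tau it had 245, 246 and 266, against 215, 209 and 196 with neither. C5ar1 was the 1 called of 26 complement, Fc and scavenger receptors. Without tau replicate 2 that list had 3 higher and 2 lower. Sdc1, the proteoglycan syndecan-1, rose with tau on both backgrounds, at 55.6, 56.3 and 49.8 CPM with MK-2206 and tau, against 19.8, 22.3 and 28.7 with MK-2206, and 60.8, 59.6 and 64.1 with tau, against 10.5, 9.06 and 9.37 with neither. The rise was smaller with MK-2206, whose own effect without tau was 1.29 ± 0.13 log2, and the interaction was -1.48 ± 0.18 (adjusted p = 0.00153, edgeR).

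Cd14, the lipopolysaccharide co-receptor, was the 1 called of 34 NF-kB feedback and target genes, with an interaction of -0.95 ± 0.17. That list had 0 higher and 4 lower without tau replicate 2. The remaining lower genes under the naming rule were Rims3, Slco4a1, Htr2b, Syn1, Rhov, Eno2, Pkp4, Fam129b, Slc16a3, Mcm3 and Ccl6. Their interactions were -2.27, -1.91, -1.82, -1.72, -1.58, -1.57, -0.91, -0.92, -0.83, -0.57 and -0.79 log2, in that order. Rims3, Htr2b, Syn1 and Rhov stayed under 12 CPM in every library, and Htr2b and Syn1 lie across Psmd1 and Araf, so reads of these neighbours could be counted with them. Slc16a3, the lactate exporter, was the 1 called of 24 glycolysis and hypoxia genes, whose median was -0.36 (1 higher and 7 lower without tau replicate 2). Mcm3, a subunit of the replicative helicase, was the 1 called of 24 DNA replication genes (0 higher and 3 lower without tau replicate 2). Ccl6 and Dkk2 were the 2 called of 33 disease-associated microglia genes, 1 in each direction (4 higher and 4 lower without tau replicate 2).

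**Figure D4:**
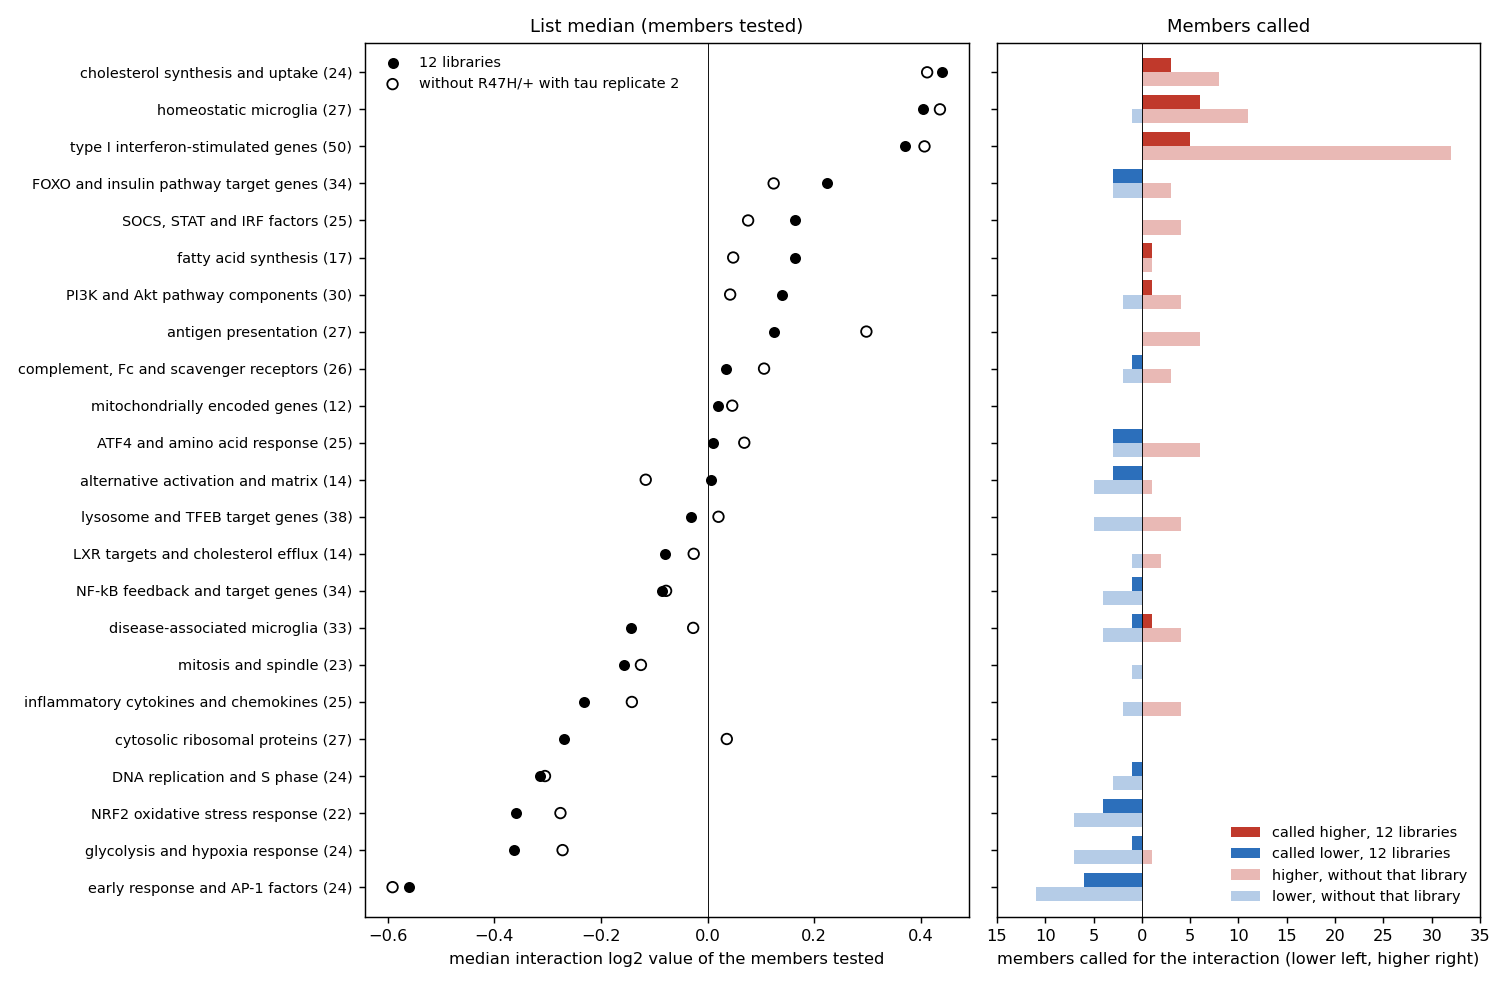
For each gene list, the left panel gives the median interaction log2 value of the tested members with all 12 libraries (filled) and without tau replicate 2 (open), and the right panel the number of members called lower (left) and higher (right). Cholesterol, homeostatic and interferon lists have the highest medians (0.44, 0.41 and 0.37), early response genes the lowest (-0.56), and leaving out that library moves the called interferon-stimulated genes to 32.

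Inflammatory cytokines and chemokines responded strongly to tau on both backgrounds. Of 25 tested, 21 rose and 1 fell with tau with MK-2206, 21 rose and 0 fell without it, and 0 were called for the interaction by edgeR, against 4 higher and 2 lower without tau replicate 2. Tnf had 42.7, 41.3 and 39.0 CPM with MK-2206 and tau, against 8.89, 7.71 and 9.97 with MK-2206, and 66.6, 81.8 and 71.9 with tau, against 13.9, 10.8 and 13.3 with neither. MK-2206 lowered Tnf in both tau states (-0.84 ± 0.12 log2 with tau, -0.51 ± 0.13 without), and its interaction of -0.33 ± 0.18 was not called (adjusted p = 0.392, edgeR). Il1b, Ccl5, Cxcl10 and the nitric oxide synthase Nos2 had uncalled interactions of -0.23 ± 0.33, -0.07 ± 0.28, 0.47 ± 0.29 and 0.45 ± 0.52, and Il6 did not pass the count filter.

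Ccl2, the monocyte-attracting chemokine, was nearest to a call. It had 56.2, 71.7 and 65.2 CPM with MK-2206 and tau, against 1.82, 0.963 and 1.23 with MK-2206, and 261, 351 and 271 with tau, against 24.3, 14.8 and 12.8 with neither. MK-2206 lowered it in both tau states, by -2.19 ± 0.20 log2 with tau and -3.70 ± 0.28 without. The interaction was 1.50 ± 0.36 (adjusted p = 0.0552, edgeR), and 1.65 without tau replicate 2 (adjusted p = 0.00355). Ccl7, chosen after its values were seen, had the same order of groups, with 40.4, 44.5 and 39.6 CPM with MK-2206 and tau, against 0.228, 0.535 and 0.565 with MK-2206, and 257, 369 and 232 with tau, against 14.8, 8.60 and 6.32 with neither.

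Trem2 itself had 182, 153 and 169 CPM with MK-2206 and tau, against 502, 546 and 501 with MK-2206, and 127, 243 and 154 with tau, against 448, 451 and 486 with neither. Tau lowered it on both backgrounds and its interaction was -0.22 ± 0.24 (adjusted p = 0.691, edgeR). Reads were counted on the mouse genome, and how far these counts include the hTrem2 R47H allele was not tested. Apoe, the lipid carrier, and Mki67, a proliferation gene, had -0.34 ± 0.23 and 0.41 ± 0.21 and were not called. No member of the lists for antigen presentation (27 tested), LXR targets (14), mitosis (23), lysosome (38), SOCS, STAT and IRF factors (25), ribosomal proteins (27) or mitochondrially encoded genes (12) was called by edgeR for the interaction. Without tau replicate 2, antigen presentation had 6 higher and 0 lower, the SOCS, STAT and IRF list 4 and 0, the lysosome list 4 and 5, the LXR list 2 and 1, and mitosis 0 and 1. A missed threshold does not show that the tau responses were equal.

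Trem2+/+ cells were measured with and without tau but not with MK-2206, so no interaction can be formed for them. In libraries scaled with all 18, Gbp4 had 60.8, 69.6 and 73.5 CPM in Trem2+/+ cells with tau, against 0.676, 1.42 and 0.675 without, both below the R47H/+ groups of the same tau state. Fos had 24.6, 21.7 and 22.8 CPM in Trem2+/+ cells with tau, against 58.8, 54.7 and 58.7 without, so tau-free wild-type cells stood above all 12 R47H/+ libraries. Lifr had 2.06, 1.73 and 2.33 CPM in Trem2+/+ cells with tau, against 1.87, 1.93 and 1.55 without. On this scale Lifr had 5.45, 4.85 and 4.58 CPM in R47H/+ cells with neither agent. The R47H/+ library values given above thus differ in start level from wild-type cells for Gbp4, Fos and Lifr. Replicate 3 of the tau-free Trem2+/+ group had a length slope of -1.27. It entered the fits above only in the setting with all 18 libraries.

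The number of called genes depended on single libraries. Leaving out tau replicate 2 gave 851 calls and leaving out tau replicate 1 gave 456, whereas leaving out any of the other 10 libraries gave 70 to 159. With genes split by length into 3 equal classes, the median interaction was -0.14 log2 in the shortest, -0.01 in the middle and 0.13 in the longest class, and without tau replicate 2 these medians were 0.00, 0.00 and 0.03. Genes called higher had a median length of 4916 bases and those called lower 3045.5, against 4164.5 over all tested; without that library the medians were 4520.0 and 4084.5. The interaction values of the 78 named genes that were called did not change sign under any of 20 settings, and 30 of them, among them Cx3cr1, Lifr, Ccr2, Gbp4, Fgd2, Fos, Dusp1, Adam8 and Tubb2a, stayed called under all 20. The other 48 lost the call under at least 1 setting, and 18 of them were called under at most 10: Csf1r, P2ry12, P2ry13, Gbp5, Sp100, Dtx3l, Stard4, Deptor, Adcy4, Alox15, St8sia6, Atf3, Jund, Dusp5, Tubb2b, Tuba4a, Mcm3 and Ccl6.

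**Figure D5:**
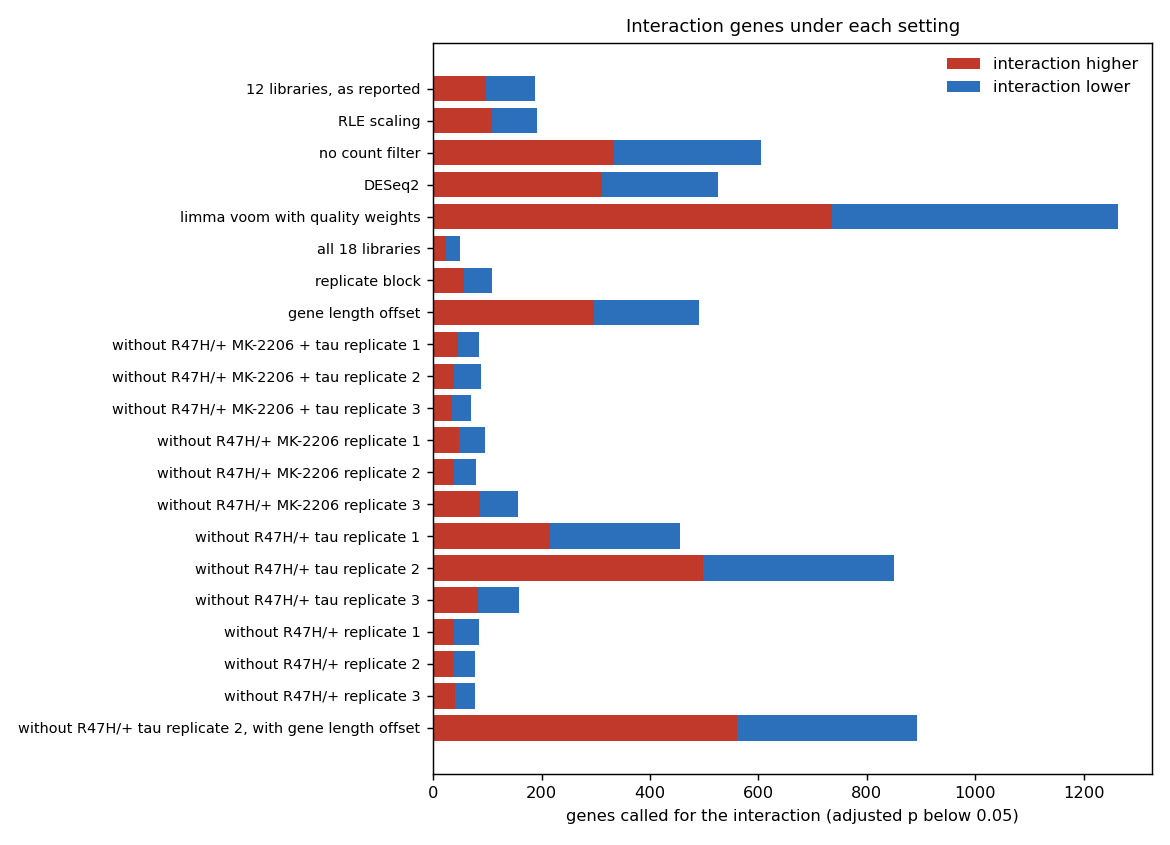
Bars give the number of genes called for the interaction with all 12 libraries and under each alternative, split into higher and lower. The count is 187 as reported, between 70 and 159 when 1 of 10 libraries is left out, 456 and 851 without tau replicates 1 and 2, and 50 when all 18 libraries share the estimate of spread.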

How the data were processed

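RNA of primary microglia was sequenced in 18 libraries, of which the 12 R47H/+ libraries were fitted. The authors deposited whole-number counts per gene, not normalized, and, per the submitters' processing notes, used STAR, featureCounts and DESeq2 on GRCm38 (mm10); versions, settings and strand use are not given in the sources used here. The other deposited columns used are the authors' gene coordinates and gene length in bases; 53499 of 54409 gene IDs (98.3%) had the same position in GENCODE M21. Of 54532 genes in the table, 27 had symbols read as dates, which were restored, and 103 shared a symbol with another row.

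The analysis ran in R 4.3.3. In edgeR 4.0.16, genes were filtered with filterByExpr, libraries scaled by TMM and a quasi-likelihood model fitted with 1 coefficient for each group (8 residual degrees of freedom). Contrasts were tested by two-sided F-tests and called at a p below 0.05 after Benjamini-Hochberg adjustment across the genes that passed the filter. CPM values use TMM-scaled libraries, log2 CPM a prior count of 2, and SE is the log2 value divided by the square root of F. Exact permutation tests are left out, since with 3 libraries a side their smallest p is 0.1. Replicates differed by 3.30 to 77.2 chi-square units per gene, more than counting noise, so each was counted as 1 sample. Same-numbered replicates did not deviate together (r between -0.0939 and 0.136, over 0.1 in 1 of 18 pairs), so numbers were not treated as pairs.

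The comparison, the 29 gene lists (697 entries) and the naming rule were chosen with earlier results of these data known. Named genes were the 12 with the largest interaction and the 6 with the smallest p in each direction, where the mean log2 CPM reached 1, up to 3 called members per list, and 14 fixed genes, of which 13 were tested; clone names and pseudogenes were left out. The 31 further genes were chosen after their values were seen, among them Csf1r, P2ry13, Iigp1, Gbp5, Dtx3l, Jund and Dusp5. The alternatives comprised DESeq2 1.42.0, limma 3.58.1 voom with quality weights, RLE scaling, no count filter, all 18 libraries, a replicate block, a lowess offset for gene length (span 0.3) and each library left out. The model was tested on simulated data. Values of some genes under the naming rule are not reported here. Promoters were taken from RefSeq (GRCm38.p6), matched for 9605 of 12912 genes.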

Additional observations from a re-analysis of the deposited data

Results flagged for a closer look

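In 13 named genes tau acted in opposite directions on the 2 backgrounds, each past the threshold, and the interaction tested the difference itself; the arms are values from the same edgeR fit. Tau was positive with MK-2206 and negative without it for 3 of them. Lifr had 0.66 and -1.58 log2 (interaction 2.24), Cx3cr1 0.80 and -1.23 (2.03), and Ccr2 1.05 and -0.55 (1.61).

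The other 10 were negative with MK-2206 and positive without it. The lipid droplet gene Hilpda had -0.99 and 1.03 log2 (interaction -2.02) and the small GTPase gene Rhov -0.64 and 0.95 (-1.58). Fos had -0.84 and 0.38 (-1.22), Pkp4, a plakophilin of cell junctions, -0.66 and 0.26 (-0.91), and C5ar1 -0.40 and 0.29 (-0.69). The tubulins Tubb2a and Tuba4a had -0.36 and 0.67 (-1.03) and -0.35 and 0.50 (-0.85). Of the redox and amino acid genes, Gsr had -0.54 and 0.32 (-0.86), Slc7a11 -0.35 and 0.59 (-0.94) and Psat1 -0.48 and 0.34 (-0.82). All 13 interactions also passed without tau replicate 2, where the largest adjusted p (edgeR) was 0.00581, for Tuba4a. That setting called 851 genes and kept 186 of the 187, so passing it adds little. Across all 20 settings Tuba4a kept its call in 9, Psat1 and Slc7a11 in 11, Rhov in 15, Gsr in 18 and Hilpda in 19. The others kept it in all 20. The tau change of Lifr with MK-2206 passed narrowly (edgeR adjusted p = 0.0496).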

How the results depend on the processing

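Counts are given as higher and lower. The interaction (97 and 90) gave 333 and 272 with no count filter, 311 and 214 with DESeq2, 736 and 528 with limma voom and quality weights, 24 and 26 with all 18 libraries, 296 and 195 with the gene length offset, and 561 and 331 without tau replicate 2 with that offset, an alternative chosen after seeing the data. In that last setting 62.9% of calls were higher, against 51.9%. With each library left out in turn it gave 34 to 497 and 36 to 354. RLE scaling gave 108 and 83. With the replicate number as a block it gave 57 and 52. The labels do not say whether equal replicate numbers mark libraries made together.

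Tau with MK-2206 (2494 and 2230) gave 3522 lower with limma, and 2087 to 3239 higher and 1697 to 3311 lower with a library left out. Tau without MK-2206 (2923 and 2524) gave 1676 lower with all 18 libraries, and 2366 to 3071 and 1911 to 2787 with a library left out. MK-2206 with tau (600 and 675) gave 965 higher with no filter, 217 and 186 with all 18 libraries, 923 higher with the offset, 1017 higher with the added alternative, and 288 to 955 and 247 to 1207 with a library left out. MK-2206 without tau (339 and 373) gave 1400.0 and 1488 with limma, 158 and 180.0 with all 18, 576 lower with the offset, 975 and 1165 with the added alternative, and 170.0 to 984 and 191 to 1107 with a library left out. No direction reversed in the 78 named genes that were called. Among named genes not called some changed sign, such as Trem2, with an interaction of -0.22 log2 and of 0.095 without tau replicate 2. The causes were not tested, apart from the fewer or more libraries and genes that define each setting. The limma fit gave tau replicate 2 a weight of 0.0797. Replicate differences of 3 libraries and unstated strand use limit every value.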
